A study of Danio rerio with 2 samples.

Results

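Collagens are the main structural proteins of the extracellular matrix. Each molecule is a helix wound from chains encoded by one gene or by several, and chains are secreted once they have folded together. Fibrillar collagens build the load-bearing fibrils of dermis, tendon, notochord sheath and cartilage, type IV forms the meshwork of basement membranes, type VI forms beaded filaments around cells, type VII anchors the epidermis to the tissue beneath it, and the FACITs (fibril-associated collagens with interrupted helices) sit on the surface of fibrils. In the day-old zebrafish embryo, collagen is made mainly by the notochord, the epidermis and the mesenchyme of the somites, and neural crest cells, the precursors of pigment cells, migrate through this matrix.

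The collagen chain genes were taken as all genes whose symbol is col, a number, the letter a and a second number, with an optional final letter. This gave 54 of the 25107 genes in the count matrices, with 52 different symbols, since col6a3 and col19a1 are each listed under 2 gene identifiers. Over the kept cells of both libraries, 34222 UMIs (unique molecular identifiers, each one captured RNA molecule) fell on these genes. Of the 54 genes, 22 had at least 200 UMIs and are described one by one, and 17 had at least 20 but fewer than 200. A further 11 had 1 to 19 UMIs (the second identifiers of col6a3 and col19a1, col21a1, col28a1b, col5a2b, col8a2, col17a1a, col17a1b, col18a1b, col14a1b and col24a1), and 4 (col8a1b, col10a1a, col10a1b and col28a2b) had none. The genes just inside and just outside the first limit were col8a1a with 209 and col6a1 with 188 UMIs, and those around the second were col9a1a and col27a1b with 24 each and the further col6a3 identifier with 11.

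The cells came from Tg(mitfa:GFP) zebrafish embryos at 24 hours post fertilization, in which the promoter of mitfa, the regulator of the melanophore lineage, drives green fluorescent protein. Cells sorted for low and for high mitfa:GFP were each made into 1 droplet library, so the sort has no replicate, no test between the groups was possible, and a difference between the sorts cannot be told apart from one between single libraries. All intervals below are exact 95% intervals that cover counting error only. The sorted cells were not a pure pigment population: in the authors' clustering only cluster 6 was melanophore-like by its leading genes, with 22 cells from the low and 197 from the high library.

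The low library held 2361 kept cells with 14826056 UMIs (median 5732 per cell) and the high library 2374 kept cells with 17545390 UMIs (median 6858.5 per cell). The libraries shared 1 barcode sequence. By marker genes among their leading genes, the clusters were called neural progenitor-like (cluster 0), crest-like (1), mesenchyme-like (2), xanthophore-like (3), neuron-like (4), retina-like (5), melanophore-like (6), epidermis-like (7) and muscle-like (8). Cluster 1 was also led by dlx2a and dlx5a, and cluster 7 also had the highest levels of 4 of 4 measured blood markers. Cluster 9 (islet-like) held 19 cells, of the low library alone, with 15 collagen UMIs, and enters no comparison. The clusters were drawn by the authors from these same cells, so differences between clusters are descriptions. Levels are given in CPM: UMIs were divided by the UMIs of all genes in the same cells and multiplied by 1000000. They come from the ends of transcripts, are not divided by length, and are compared here between cells. Ratios between genes are given as ratios of counted transcript ends, not of molecules per length.

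Collagen RNA was concentrated in the epidermis-like and mesenchyme-like cells and was lowest in the melanophore-like cells. Summed over all collagen genes, cluster 7 held 5934 CPM in the low library (5773 to 6099) and 7303 CPM in the high one (7076 to 7536). Cluster 2 held 3456 (3369 to 3545) and 3768 (3665 to 3874). These clusters therefore stood apart from all others in both libraries: cluster 0 had 1048 and 806, muscle-like cluster 8 had 970 and 981, and every other cluster had at most 365. Crest-like cluster 1 had 365 (345 to 387, low) and 244 (229 to 259, high). The pigment cells came last, with 192 (160 to 228) and 165 (151 to 179) in xanthophore-like cluster 3 and 80.1 (48.2 to 125) and 87.1 (75.1 to 100) in melanophore-like cluster 6. Clusters 2 and 7 together made up little of the sort, with 9.80% and 4.33% of the cells, yet they carried 32.3% and 26.4% of all collagen UMIs. Cluster 6 carried 0.605% of the collagen UMIs with 4.63% of the cells.

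**Figure D1:**
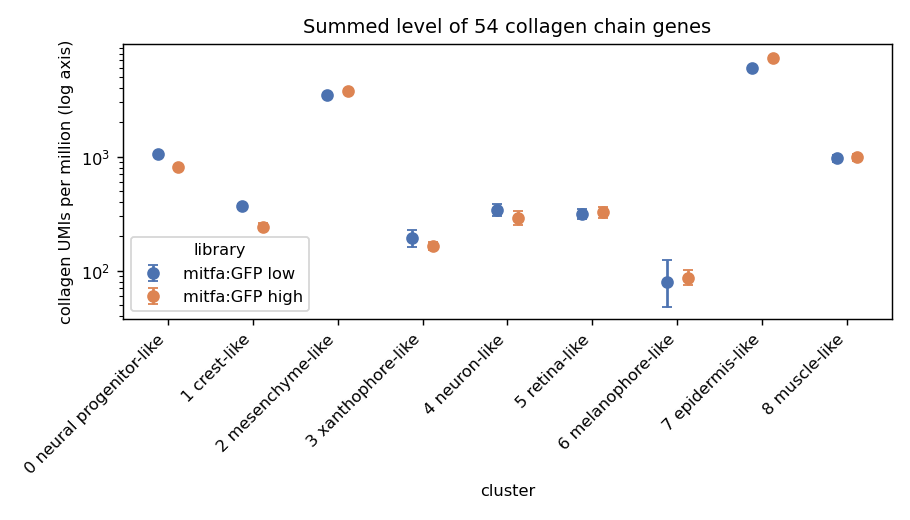
Summed CPM of all collagen chain genes (log axis) in each cluster, with 1 point for the low and 1 for the high mitfa:GFP library and exact Poisson 95% intervals. Cluster 7 is highest in both libraries (5934 and 7303) and cluster 6 lowest (80.1 and 87.1).

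The share of cells with at least 1 collagen UMI gave a similar picture, but it moved with depth. It was 97.4% (low) and 97.0% (high) in cluster 2, and 11 of 22 cells and 50.8% in cluster 6, whose cells were the deepest (median 10925 UMIs against 5993 in cluster 2). After each cell was thinned to 2000 UMIs, the shares were 83.1% and 86.1% in cluster 2, 77.8% and 73.4% in cluster 8, 69.7% and 69.9% in cluster 7, 65.8% and 62.2% in cluster 0, and 45.2% and 34.0% in cluster 1. In cluster 6 they were 4.55% (1 of 22 cells, 0.12% to 22.8%) and 13.8% (9.28% to 19.4%), below the 32.8% and 34.3% of neuron-like cluster 4. Cluster 7 had the higher sum and cluster 2 the larger share of cells, and the levels per cell show this difference: the quartiles of collagen CPM in single cells were 267, 1464 and 9266 in cluster 7 and 685, 1860 and 5459 in cluster 2.

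The mix of collagen types differed between clusters, though some clusters had similar shares. In cluster 2, 83.0% (low) and 81.2% (high) of collagen UMIs came from fibrillar chains, and in cluster 8 82.3% and 85.4%. In cluster 7 it was 61.5% and 65.1%. The remainder was spread over basement membrane, FACIT and multiplexin chains and types VII and XXVIII, which were summed together. In retina-like cluster 5 fibrillar chains made 23.1% and 28%, and multiplexins (types XV and XVIII, which lie at basement membranes) made 31.0% and 29.3%. FACITs made 34.8% and 33.4% in cluster 1, beside 38.4% and 34.3% from fibrillar chains, and 40.0% and 36.0% in cluster 3, beside 27.7% and 31.6%. In cluster 6 FACITs made 26.3% (low, from 5 UMIs) and 37.2% (high, from 70 UMIs).

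Of the 39 genes with at least 20 UMIs, 22 had their highest level over both libraries in cluster 7, where 11.1% of all genes with at least 20 UMIs did, and 10 had it in cluster 2, against 7.25% of all genes. Cluster 0 held 3 (col2a1a, col8a1a and col9a3, against 11.6%), cluster 5 held 2 (col15a1b and col9a2, against 12.1%) and cluster 8 held 2 (col4a2 and col19a1, against 9.15%). For col9a3, col9a2 and col4a2 the lead over the next cluster was within counting error. The same held for col5a3a, col9a1b, col11a2 and col28a1a in cluster 7 and for col4a1 and col9a1a in cluster 2. The gene col27a1b had 2 UMIs in cluster 7 and 2 in the next cluster, too few for a ratio. None was highest in the crest-like, xanthophore-like, neuron-like or melanophore-like cluster (1, 3, 4 or 6), where 48.8% of all genes were. The highest cluster was the same in both libraries for 21 of the 22 genes with at least 200 UMIs, the exception being col5a3a.

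**Figure D2:**
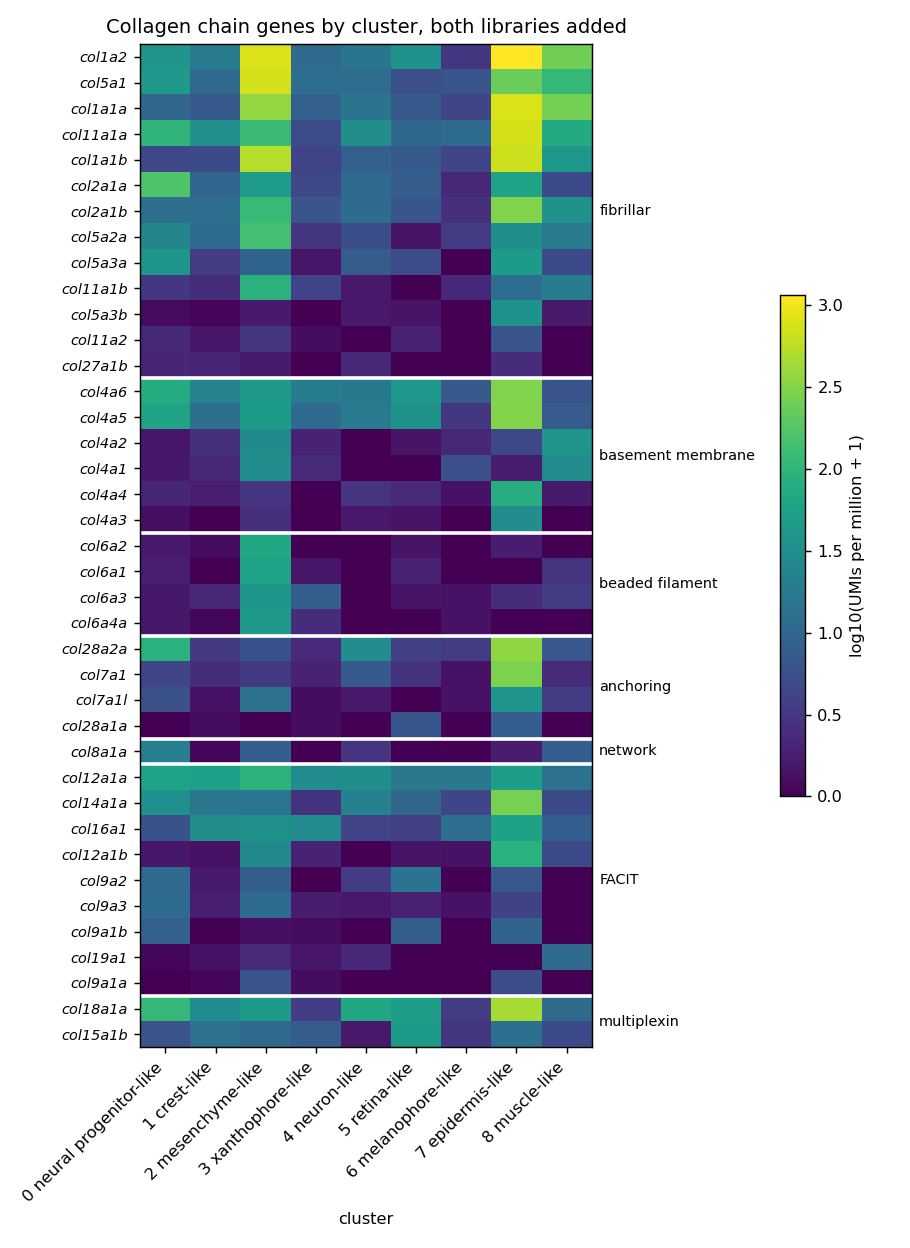
Level of each collagen chain gene with at least 20 UMIs (rows, grouped by collagen class) in clusters 0 to 8 of both libraries together, as a colour scale of log10 of CPM plus 1. The columns of clusters 2 and 7 are the brightest, and the type VI chains stand out in cluster 2 alone. The rows labelled anchoring hold types VII and XXVIII together.

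The type I chains, which form the common fibrils of dermis and bone, were the most counted. The gene col1a2 had 5083 UMIs, with 972 CPM (low) and 1452 CPM (high) in cluster 7, 755 and 869 in cluster 2 and 242 and 253 in cluster 8, against 42.9 and 32.4 in cluster 0. At least 1 UMI of col1a2 was seen in 59.2% and 58.3% of cluster 2 cells and 45.7% and 59.2% of cluster 7 cells, against 4.57% and 4.05% in cluster 4, whose neuron-like cells should lack it (median 4049 UMIs). The copies col1a1a and col1a1b encode the other chain of the molecule. The level of col1a1a was 683 and 939 in cluster 7, 346 and 404 in cluster 2 and 254 and 279 in cluster 8. The level of col1a1b was 593 and 800 in cluster 7 and 508 and 559 in cluster 2, but only 23.7 and 62.9 in cluster 8. The muscle-like cells thus carried the type I molecule mainly through one copy, with 409 UMIs of col1a1a against 64 of col1a1b over both libraries (log2 ratio 2.68).

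Type V chains start new fibrils and join type I fibrils. The gene col5a1 was at 718 (low) and 727 (high) in cluster 2, 234 and 225 in cluster 7 and 115 and 102 in cluster 8. It was counted in 69.8% and 70.4% of cluster 2 cells, against 4.06% and 3.38% of cluster 4 cells. Its partner col5a2a was also highest in cluster 2, at 130 and 150. A further type V gene, col5a3a, had no clear highest cluster, with 45.7 and 31.3 in cluster 0 and 45.1 and 46.8 in cluster 7. Its copy col5a3b was seen almost solely in cluster 7, where 29 (low) and 20 (high) of its 57 UMIs lay.

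Type XI chains belong to the same fibril family and are best known from cartilage. The level of col11a1a was 680 and 843 in cluster 7, 137 and 102 in cluster 2, 110 and 89.4 in cluster 0 and 87.9 and 55.8 in cluster 8. Its copy col11a1b differed, being highest in cluster 2 at 86.7 and 97.1. The log2 ratio of col11a1a to col11a1b was 6.02 in cluster 7 and 0.41 in cluster 2, so the copies were closer together in mesenchyme-like than in epidermis-like cells. Within cluster 2 it was 0.66 (0.36 to 0.96) in the low and 0.07 (-0.29 to 0.42) in the high library. The partner chain gene col11a2 had 31 UMIs in all, and the log2 ratio of both col11a1 copies to it was 6.67.

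Type II collagen is the main fibril of the notochord sheath and of cartilage, and its copies divided between clusters. The level of col2a1a was highest in neural progenitor-like cluster 0, with 198 (low) and 122 (high), followed by 77.6 and 22.5 in cluster 7 and 53.4 and 40.3 in cluster 2. In contrast, col2a1b was at 288 and 328 in cluster 7 and 122 and 102 in cluster 2. The log2 ratio of col2a1a to col2a1b was 3.73 in cluster 0, -1.25 in cluster 2, -2.42 in cluster 7 and -3.22 in cluster 8. Cells with a col2a1a UMI made up 29.3% and 27% of cluster 0, against 3.05% and 2.70% of cluster 4.

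**Figure D3:**
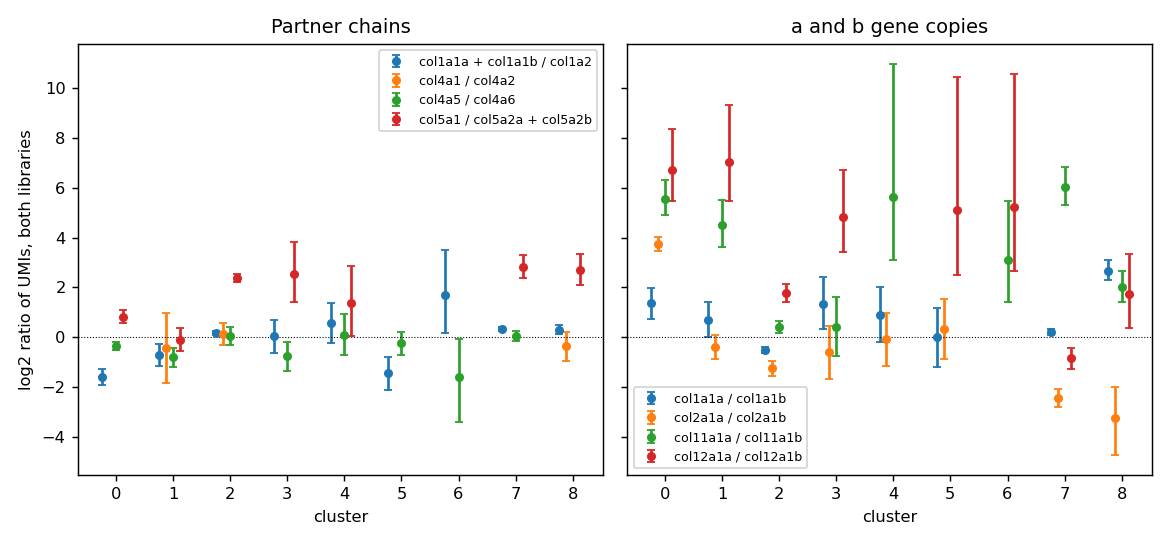
Log2 ratios of UMIs between genes (vertical axis), left for partner chains and right for a and b copies, in each cluster with at least 20 UMIs of the pair, both libraries together, with exact 95% intervals. Among partners col4a5 to col4a6 lies at 0.04 in cluster 7, whereas the copies col2a1a and col2a1b run from 3.73 in cluster 0 to -3.22 in cluster 8.

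Basement membrane chains were counted in 2 patterns. The chains col4a5 and col4a6, which join in one molecule, were highest in cluster 7, with 284 (low) and 348 (high) for col4a5 and 266 and 354 for col4a6. In cluster 0 they were at 62.0 and 58.8 and at 84.4 and 68.9. The chains col4a1 and col4a2 of the common vessel and muscle network followed another pattern. Cluster 2 had 32.7 and 29.1 of col4a1 and cluster 8 had 30.9 and 28.6, while col4a2 was at 24.7 and 32.9 in cluster 2 and 46.3 and 28.6 in cluster 8. The kidney-type chains col4a3 and col4a4, known in mammals from the glomerulus, were seen mainly in cluster 7, with 43 of 53 and 113 of 143 UMIs.

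The chains of type VI collagen, the beaded filaments of connective tissue and muscle, were counted almost solely in mesenchyme-like cells. The level of col6a2 was 56.9 (low) and 75.4 (high) in cluster 2, and the log2 ratio to its next cluster was 6.50. It was seen in 16.2% and 19.1% of cluster 2 cells and in 0 of 197 and 0 of 148 cells of cluster 4. The level of col6a1 was 44.2 and 72.4, that of col6a3 30.4 and 50.8 and that of col6a4a 37.3 and 53.0, all in cluster 2. Both col6a1 and col6a2 were among the 10 leading genes of cluster 2, so their place there also names it. An exception was col6a3 in xanthophore-like cluster 3, where it had 32 UMIs over both identifiers beside 2 of col6a1 (log2 ratio of col6a1 to col6a3 of -4.00, against 0.43 in cluster 2).

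Type VII collagen makes the anchoring fibrils below the epidermis. The level of col7a1 was 280 (low) and 305 (high) in cluster 7 and at most 7.1 elsewhere, a log2 ratio to the next cluster of 5.52 (4.62 to 6.59). It was counted in 32.6% and 39.5% of cluster 7 cells and in 2.54% and 2.03% of cluster 4 cells. Its relative col7a1l was also highest there, at 39.4 and 35.6. A chain of type XXVIII, col28a2a, was at 380 and 324 in cluster 7 and 94.0 and 81.6 in cluster 0. The short-chain network gene col8a1a, known in zebrafish from the notochord, was highest in cluster 0 at 26.1 and 10.1.

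Among the FACITs, col14a1a was at 271 and 270 in cluster 7, whereas col12a1a was counted in every cluster from 0 to 8. The level of col12a1a was 96.5 (low) and 91.9 (high) in cluster 2, 71.6 and 38.2 in cluster 1, 62.6 and 54.4 in cluster 0 and 55.6 and 41.2 in cluster 7. It was 39.9 and 26.5 in cluster 3, 34.2 and 29.9 in cluster 4 and 16.9 and 15.3 in cluster 6. Of cluster 1 cells 38.2% and 25.7% had a col12a1a UMI, and of cluster 3 cells 23.1% and 21%. The shares in cluster 4 were 12.2% and 9.46%, in shallower cells (median 4049 UMIs, against 8861 in cluster 1 and 9776 in cluster 3). At 2000 UMIs per cell they were 13.1% and 7.28% in cluster 1, 6.58% and 4.87% in cluster 3 and 6.21% and 4.38% in cluster 4, so that cluster 3 was not above the neuron-like cells beyond counting error. In cluster 2 they were 17.7% and 17.5%. The copy col12a1b was at 83.3 and 101 in cluster 7 and 23 and 33.6 in cluster 2, so that the log2 ratio of col12a1a to col12a1b was 7.03 in cluster 1 and -0.85 in cluster 7.

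The FACIT gene col16a1 was carried by the crest-like and xanthophore-like cells at levels near those of cluster 2. Its level was 50.9 and 63.7 in cluster 7, 35.4 and 27.4 in cluster 3, 31.7 and 31.1 in cluster 1, 26.4 and 42.6 in cluster 2 and 4.2 and 12.5 in cluster 6. Cells with a col16a1 UMI made up 21.6% and 21.6% of cluster 1 and 25.6% and 22.5% of cluster 3, against 1.02% and 2.03% of cluster 4 (medians 8861, 9776 and 4049 UMIs). At 2000 UMIs per cell the shares were 4.81% and 4.23% in cluster 1 and 7.89% and 7.47% in cluster 3, against 0 of 177 and 0 of 137 cells in cluster 4. The type IX chains, FACITs that decorate type II fibrils, were low. Over both libraries col9a2 was highest in cluster 5 (13.8) ahead of cluster 0 (10.1), and col9a3 was at 10.8 in cluster 0 and 10.7 in cluster 2. The level of col9a1b was 8.59 in cluster 7 and 7.66 in cluster 0. For col9a2, col9a3 and col9a1b the interval of the log2 ratio to the next cluster included 0. The rarest measured chains were too few to set their highest cluster apart from the next: col9a1a was at 5.19 in cluster 2 and 4.29 in cluster 7, and in cluster 7 col28a1a was at 7.16 and col11a2 at 5.01, with intervals of the log2 ratio to the next cluster that included 0. The FACIT col19a1, which guides motor axons in zebrafish, had 16 of its 28 UMIs in cluster 8 (10.4 over both libraries).

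The multiplexin col18a1a, whose protein end fragment is endostatin, was at 390 (low) and 571 (high) in cluster 7, 113 and 102 in cluster 0, 62.6 and 68.4 in cluster 4 and 54.7 and 45.6 in cluster 5. In the neuron-like cells 15.7% and 18.9% had a UMI of it, where the fibrillar chains with at least 200 UMIs were seen in at most 6.09% of cells. Its relative col15a1b was highest in the retina-like cells, at 42.3 and 49.8.

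Several partner chains of one molecule had similar counts, which in libraries of transcript ends also depend on how well each end is captured. The log2 ratio of both col1a1 copies to col1a2 was 0.14 (0.08 to 0.19) over all cells, 0.16 in cluster 2, 0.33 in cluster 7 and 0.31 in cluster 8. In clusters with little type I collagen it went both ways. It was -1.58 in cluster 0, -0.71 in cluster 1 and -1.44 in cluster 5. In clusters 3 and 4 it was 0.03 (-0.62 to 0.69) and 0.56 (-0.24 to 1.39). In cluster 6 it was 1.68 (0.16 to 3.48), from 16 and 5 UMIs. The ratio of col4a1 to col4a2 was -0.02 (-0.34 to 0.29), that of col4a5 to col4a6 was 0.04 in cluster 7 and -0.80 in cluster 1, and that of col6a1 to col6a2 was -0.16. Unequal pairs were col4a3 to col4a4 at -1.43 and col5a1 to both col5a2 copies at 1.99, the latter ranging from -0.09 in cluster 1 to 2.81 in cluster 7. In the RefSeq gene order of assembly GRCz12tu the pairs col4a1 and col4a2, col4a3 and col4a4, and col4a5 and col4a6 are direct neighbours, and col6a1 and col6a2 have 1 gene between them. Over the 9 clusters, which share libraries, the log2 levels of these neighbours had Pearson correlations of 0.96, 1.00, 0.98 and 0.99. Of col6a1 and col6a2, 174 of 188 and 200 of 210 UMIs lay in cluster 2, and most UMIs of col4a3 and col4a4 lay in cluster 7. Neighbours that do not belong to one molecule had -0.22 (col9a2 and col16a1) and -0.36 (col19a1 and col9a1b, with 1 gene between them). Collagen genes that are not neighbours were not compared in this way.

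The counting of chains in the same cells is described here without a test, and it was not particular to partners. In cluster 2, thinned to 2000 UMIs per cell, col1a1a and col1a2 were both counted in 27.6% of low-library cells, where the product of their single shares was 16%, and in 30.9% against 19.5% in the high library. For col6a1 and col6a2 the values were 5.12% against 0.963% and 5.67% against 1.01%. In cluster 8 col1a1a and col1a2 were together in 9.88% of low-library cells against a product of 11.5%, and in 18.8% against 13.4% in the high library. Of chains that are not partners, col5a1 and col1a2 were together in 33.9% against 23% and in 38.1% against 24.5% in cluster 2.

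Among gene copies, several pairs were carried by one member alone. The UMIs of the a and b copies were 908 and 1 for col14a1, 2213 and 2 for col18a1, 1394 and 0 for col28a2, 821 and 3 for col5a2 and 209 and 0 for col8a1. Type X copies, known from bone and cartilage, had 0 UMIs each, and type XVII copies, known in mammals from epidermal attachment, had 1 and 3. The b copy was the more counted one for col9a1, with 24 UMIs of col9a1a and 98 of col9a1b.

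Within cluster 7, the collagen UMIs sat in one group of cells. Cells with at least 5 UMIs of tp63, krtt1c19e, itgb4 and cldni together, genes of basal epidermis, and under 20 of the blood markers numbered 54 among the 129 low-library cells (41.9%) and 44 among the 76 high-library cells (57.9%). These limits, like those of the other cell subsets below, were set after the data had been seen. The 98 cells held 94.1% of the cluster's collagen UMIs, at 11874 CPM (low) and 10453 CPM (high). The other cells of cluster 7 had 854 and 934, which is close to the level of cluster 0. Between the basal cells and the others the log2 ratio was 3.80 (low) and 3.48 (high). The anchoring chain col7a1 had 403 UMIs in them and 2 outside, col28a2a had 491 and 10, and col4a3, col4a4, col5a3b and col7a1l had 43, 113, 49 and 53 against 0 each. The opposite held for col2a1a, with 6 UMIs in the basal cells and 73 in the others. The other cells also held most UMIs of stm (546 against 6) and oc90 (102 against 4), genes of the developing ear, and of icn (5900 against 907). The 4 blood cells by these limits, all from the low library, held 1 collagen UMI.

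In cluster 2 a similar division followed dlx genes, the homeobox genes of head crest and fin fold. The 54 cells with at least 5 UMIs of 6 dlx genes (37 low, 17 high) had 763 and 374 collagen CPM and held 3.0% of the cluster's collagen UMIs. The 396 cells with fewer dlx UMIs and under 2 UMIs of the endothelial genes cdh5 and kdrl (222 low, 174 high) had 4223 and 4394 and held 95.7%. The log2 ratio between them was 2.47 (low) and 3.55 (high), and the somite gene meox1 had 998 UMIs in the larger group against 1 in the dlx cells. For single chains this log2 ratio over both libraries was lower for col2a1b (0.47) and col12a1a (0.83), and it was -0.21 for col14a1a, so these FACIT and type II chains did not follow the others. The 14 cells with at least 2 UMIs of these endothelial genes held 11 of the 96 col4a1 UMIs of cluster 2 (11.5%) with 1.30% of its collagen UMIs, and 3 of the 87 col4a2 UMIs.

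Part of the collagen of cluster 0 lay in very few cells. The 63 cells with at least 3 UMIs of col2a1a (39 low, 24 high) were 3.56% of the cluster. Since col2a1a chose these cells, it was left out of the sums for them that follow, and they held 22.6% of the cluster's other collagen UMIs. Of these, 10 cells (5 in each library) had at least 2 UMIs of shha and shhb, genes of notochord and floor plate. The 10 do not stand for all shha cells of the cluster. Cells under the col2a1a limit held 107 (low) and 59 (high) shha UMIs, against 53 and 37 in the 63 cells. The notochord marker gene tbxta had only 5 (low) and 0 (high) UMIs in the 63 cells, and 3 and 2 in those under the limit. Whether the 10 cells were of notochord or floor plate was not tested. These 10 cells, 0.566% of the cluster, held 14.1% of its collagen UMIs other than col2a1a, at 17814 CPM (low) and 12953 CPM (high). They held 82.3% of the cluster's col9a3, 75% of its col9a1b, 65.6% of its col9a2, 59.4% of its col8a1a, 56.4% of its col2a1b, 35.5% of its col5a1 and 30.6% of its col11a1a UMIs, but 1.56% of its col18a1a. The chains named first are those of cartilage and notochord sheath. Since a collagen gene, col2a1a, chose the cells, the shares of chains that go with it were partly set by that choice. They describe the chosen cells only. Of the other col2a1a cells, 8 with at least 3 UMIs of the ear genes oc90 and stm held 3.07% of the cluster's other collagen UMIs, and the remaining 45 held 5.46%. The 1705 cells under the col2a1a limit had 677 (654 to 701) and 574 (549 to 599) CPM of the other chains, against at most 351 (331 to 372) in clusters 1, 3, 4, 5 and 6 summed in the same way. The median cell of cluster 0 had 530 CPM of all collagen genes, against 218 in cluster 1 and 62.7 in cluster 6.

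**Figure D4:**
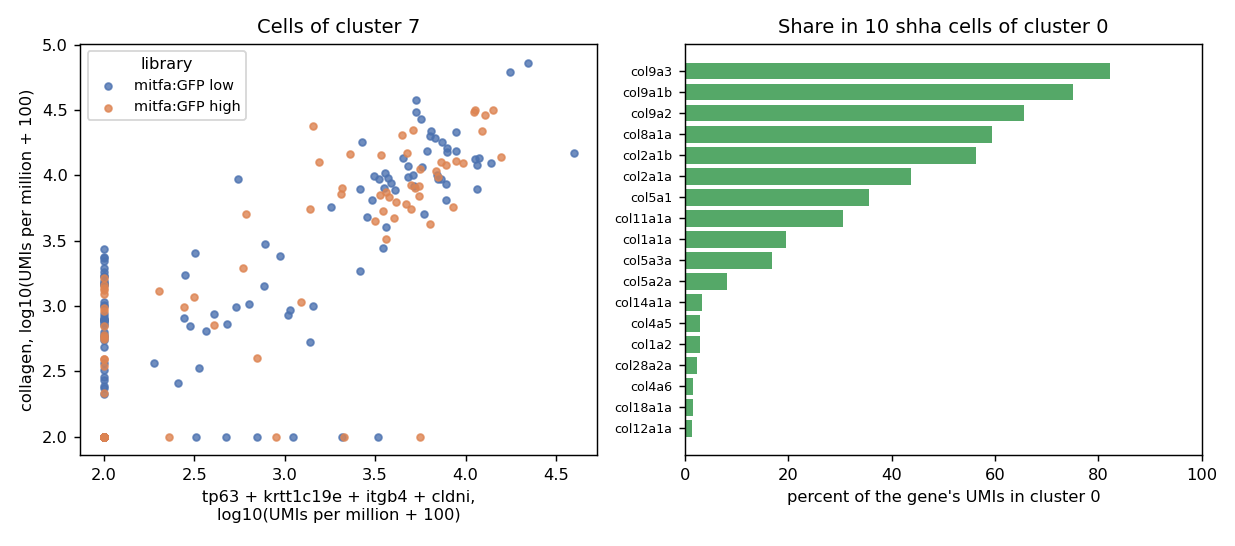
Left, collagen against the basal list (tp63, krtt1c19e, itgb4 and cldni), both as log10 of CPM plus 100, in each cell of cluster 7, coloured by library. Right, bars of the percent of each gene's cluster 0 UMIs that fell in 10 cells, with col9a3 at 82.3% and col18a1a at 1.56%. The 10 cells had at least 3 UMIs of col2a1a and at least 2 of shha and shhb, so the bar of col2a1a is of a gene that chose them. The other bars also depend on that choice.

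The study's sort was set to separate cells by mitfa:GFP, and over all kept cells the collagen sum was 1299 CPM (1280 to 1317, low) and 853 CPM (839 to 867, high). This is a log2 ratio of high to low of -0.61 (-0.64 to -0.58). Of the 39 measured genes, 35 were lower and 4 higher in the high library, where 41.2% of all genes were higher. The median log2 ratio was -0.56, against -0.12 over all genes. A level at least 2-fold lower in the high library was found for 8 genes, against 5.23% of all genes, and a level at least 2-fold higher for 1 gene, against 6.62%. The 8 were col9a1b (5.13 to 1.25 CPM), col8a1a (10.7 to 2.91), col27a1b, col4a3, col2a1a (82.2 to 33.7), col9a3, col4a4 and col5a3a, with log2 ratios of -2.03, -1.87, -1.83, -1.45, -1.29, -1.27, -1.14 and -1.01. Of these, col27a1b had 18 and 6 UMIs (interval -3.45 to -0.43) and col4a3 had 37 and 16 (-2.40 to -0.57), the lowest counts of the 8. The 1 higher gene was col28a1a, whose UMIs numbered 4 (low) and 21 (high; log2 ratio 2.15, 0.58 to 4.15). The FACIT col16a1 was also higher, at 17.1 and 20.7 (log2 ratio 0.28, 0.04 to 0.51). The make-up of the libraries also differed, and whether it set this ratio was not tested. Collagen-rich cluster 7 had 129 cells (low) and 76 (high), and collagen-rich cluster 2 also had fewer cells in the high library. Cluster 6, where collagen was lowest, had 22 and 197. Cluster 0 had 1001 and 767, with a collagen level of 943 CPM over both libraries, against 1057 in all kept cells.

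**Figure D5:**
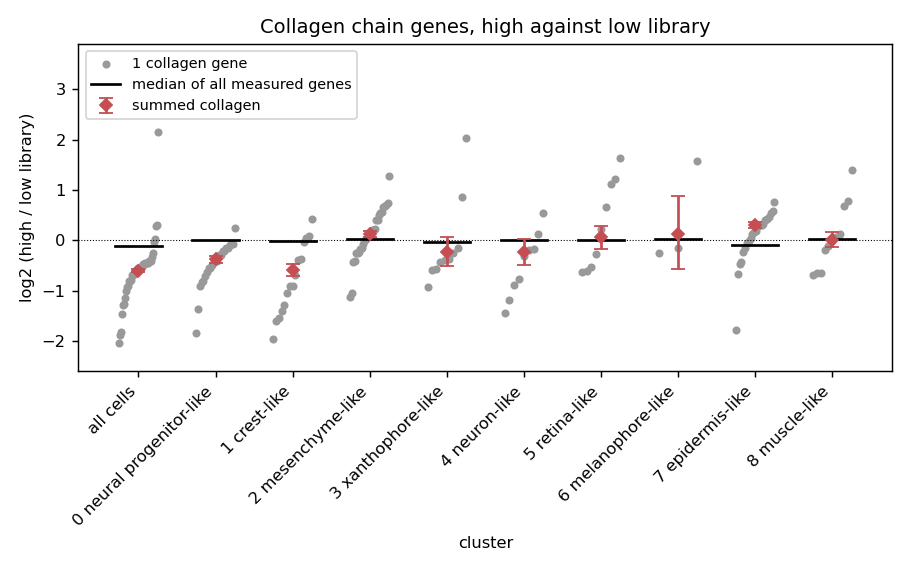
Log2 ratio of the high to the low library (vertical axis) over all kept cells and in each cluster, with grey points for measured collagen genes, red diamonds for their sum with exact 95% intervals and black bars for the median of all measured genes. The diamonds lie at -0.61 over all cells, -0.38 in cluster 0, -0.58 in cluster 1, 0.12 in cluster 2 and 0.30 in cluster 7.

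Within clusters the libraries did not differ in one direction. In cluster 0 the log2 ratio of the sum was -0.38 (-0.44 to -0.31), and 22 of 23 genes were lower in the high library. The median was -0.41 against -0.00 over all genes of the cluster, of which 49.9% were higher. In that cluster 2 genes, col9a1b (-1.85) and col8a1a (-1.37), were at least 2-fold lower, against 1.88% of all genes, and 0 were at least 2-fold higher, against 1.32%. Both genes were counted mainly in the 63 col2a1a cells. These held 48 (low) and 10 (high) UMIs of col9a1b, against 8 and 2 in the other cells of the cluster. For col8a1a they held 100 and 30, against 31 and 9. With col2a1a left out of the sum the ratio was -0.31 (-0.38 to -0.24), and -0.24 (-0.32 to -0.16) when the 63 col2a1a cells were left out too. In cluster 1 the ratio was -0.58 (-0.71 to -0.46) and 12 of 15 genes were lower, where 48.8% of all genes were higher. The median was -0.90 against -0.01. There 6 genes, col1a1a, col1a1b, col1a2, col2a1a, col5a2a and col14a1a, were at least 2-fold lower, against 5.60% of all genes, and 0 at least 2-fold higher, against 6.80%. The level of col1a2 was 26.8 (low) and 8.82 (high). The ratios of col16a1 (-0.03) and col11a1a (0.05) lay near 0 and col4a6 had 0.42. The make-up of the cluster also differed: cells with at least 10 UMIs of 10 melanophore genes numbered 34 of 380 (low) and 194 of 435 (high). Whether it set these ratios was not tested. Among the cells with fewer such UMIs the ratio of the sum was -0.29 (-0.43 to -0.15), that of col1a2 -1.29 (-2.0 to -0.63) and that of col14a1a -0.38 (-1.01 to 0.22). Summed fibrillar chains had -0.50 (-0.74 to -0.27) in those cells and 1.07 (0.10 to 2.24) in the pigmented ones, the latter from 9 and 115 UMIs.

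In cluster 2 the sum was slightly higher in the high library, at 0.12 (0.07 to 0.18), with 18 of 28 genes higher, against 53.7% of all genes. The type VI chains col6a1 (0.71, 0.27 to 1.16) and col6a3 (0.74) were among the 18. At least 2-fold higher was col9a2 (8 and 15 UMIs), 1 of 28 genes, against 2.91% of all genes. At least 2-fold lower were col8a1a (17 and 6 UMIs) and col9a3 (24 and 9), 2 of 28, against 2.04%. The intervals of col9a2, col8a1a and col9a3 included 0, so these differences were within counting error. Among the 396 cells with few dlx UMIs the ratio of the sum was 0.06 (0.00 to 0.11), and in the dlx cells it was -1.03 (-1.45 to -0.63). In cluster 7, 14 of 22 genes were higher, against 41.8% of all genes. There col2a1a alone was at least 2-fold lower (-1.79, against 8.20% of all genes) and 0 were at least 2-fold higher (against 2.77%). The ratio of the sum in cluster 7 was 0.30 (0.24 to 0.36). Among the basal list cells the ratio was -0.18 (-0.25 to -0.12), among the other cells 0.13 (-0.14 to 0.40) and without the 4 blood cells 0.24. The share of basal list cells was 41.9% (low) and 57.9% (high), and whether it set the ratio of the cluster was not tested. In clusters 3, 4, 5, 6 and 8 the ratios were -0.22, -0.23, 0.06, 0.12 and 0.02, with intervals that included 0, which does not show that the libraries were alike there. Single genes at least 2-fold higher in these clusters were col1a2 in cluster 3 (2 and 39 UMIs, 1 of 10 genes, against 7.54% of all genes), col11a1a, col14a1a and col9a2 in cluster 5 (3 of 9, against 2.15%), col16a1 in cluster 6 (1 and 27 UMIs, 1 of 3, against 8.75%) and col1a1b in cluster 8 (20 and 44 UMIs, 1 of 11, against 3.86%). In cluster 4 none of 9 was higher (against 3.29%), while col1a1a and col1a2 were at least 2-fold lower (2 of 9, against 3.49%). No gene was at least 2-fold lower in clusters 3, 5, 6 and 8, against 4.30%, 2.29%, 4.43% and 2.83% of all genes. These counts are low, with at most 44 UMIs of a gene in a library. The intervals of col14a1a and col9a2 in cluster 5, col16a1 in cluster 6 and col1a1a and col1a2 in cluster 4 included 0. Those differences were therefore within counting error. The intervals of col1a2 in cluster 3, col11a1a in cluster 5 and col1a1b in cluster 8 did not include 0.

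Among the crest-like cells, the collagen sum was lower where pigmentation genes were high. Cells of cluster 1 with at least 10 UMIs of 10 melanophore genes (34 low, 194 high) were set beside the others (346 low, 241 high). This split cuts a continuous range, and 30 cells of the low and 123 of the high library had 5 to 19 UMIs. The pigmented cells were deeper, with medians of 9576 (low) and 9879.5 (high) UMIs, against 8216 and 8464 in the others. The others were not divided further, although dlx2a and dlx5a also led this cluster. The sum was 265 against 376 CPM in the low library (log2 ratio -0.51, -0.84 to -0.19) and 176 against 307 in the high library (-0.80, -1.0 to -0.61). For col12a1a the ratio was -1.03 (-2.01 to -0.20) and -0.83 (-1.33 to -0.34), and for col11a1a it was -3.57 (-8.89 to -1.06, from 1 UMI in the pigmented cells) and -0.85 (-1.39 to -0.33). For col18a1a it was -0.36 (-1.53 to 0.62) and -1.16 (-1.80 to -0.55), so in the low library its difference was within counting error. In contrast, col16a1 was at 73.8 against 27.1 in the low library (1.45, 0.73 to 2.12), from 24 and 80 UMIs, and its ratio in the high library was -0.30 (-0.83 to 0.23). With a limit of 5 UMIs the col16a1 ratios were 1.16 (0.48 to 1.80, low) and -0.27 (-0.80 to 0.27, high). With a limit of 20 UMIs they were 1.81 (0.96 to 2.57) and -0.60 (-1.22 to -0.01). The basement membrane chain col4a6 had 1.18 (0.14 to 2.12) and -0.32 (-0.92 to 0.28). With limits of 5 and 20 UMIs its low-library ratio was 0.75 (-0.26 to 1.66) and 1.24 (-0.14 to 2.39), so it was not set apart from 0 there.

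Genes that modify, fold, export and crosslink collagen chains were compared between the collagen-rich clusters 2 and 7 and cluster 0, over both libraries. Of the collagen genes, 15 of 31 were at least 4-fold higher in cluster 2 than in cluster 0, against 6.44% of all genes, and 3 were at least 4-fold lower, against 5.46%. In cluster 7, 18 of 28 were at least 4-fold higher, against 9.84%, and 1 was lower, against 8.24%. Chain modification enzymes followed with 5 of 13 in each cluster, and chaperone and export genes with 4 of 9 in cluster 2 and 3 of 9 in cluster 7. The list of other matrix genes had 11 of 18 and 10 of 16. Processing and crosslinking genes had 4 of 8 in cluster 2 and 2 of 7 in cluster 7, collagenases and gelatinases 2 of 3 and 2 of 4, and the listed transcription factors 4 of 8 and 1 of 6. Receptors had 2 of 7 in cluster 2 and 0 of 5 in cluster 7. At least 4-fold lower were 1 receptor in each cluster and, in cluster 7, 1 gene each of chain modification, processing and other matrix.

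The collagen chaperone gene serpinh1b, whose protein Hsp47 holds the folded helix, was at 64.1 CPM in cluster 0, 606 in cluster 2 and 132 in cluster 7. Its copy serpinh1a was at 4.85, 32.1 and 66.5 in the same order, and the export receptor gene mia3 at 48.1, 57.5 and 49.4. The copies of the chaperone thus peaked in different clusters, and mia3 was level. Among enzymes that modify the chains, the prolyl hydroxylase gene p4ha1b was at 8.57, 51.0 and 75.1 and its partner subunit p4hb at 55.3, 139 and 192. The lysyl hydroxylase gene plod1a was at 10.7, 45.8 and 64.4, and p3h1, another prolyl hydroxylase, at 9.58, 49.3 and 70.1. These genes were high in both collagen-rich clusters, whereas p3h2 was at 8.0, 44.5 and 17.2. However, p4ha1b, plod1a, p3h1 and p3h2 were named because they differed at least 4-fold between clusters 2 and 0. Their high level in cluster 2 was therefore set by that choice. The gene of this list that was at least 4-fold lower in cluster 7 was plod2, at 9.47, 17.9 and 2.15. The folding enzyme gene ppib, with 483, 844 and 1224, and p4hb were also high in melanophore-like cluster 6, at 981 and 198, where collagen was lowest.

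Like those of the other lists, the named crosslinking and trimming genes were chosen partly by their difference between clusters 2 and 0. The lysyl oxidase gene loxl2a was at 14.7, 131 and 15.0 and its copy loxl2b at 3.27, 26.6 and 17.9. The propeptide-removing enzyme bmp1a was at 7.33, 24.0 and 10.0, and its enhancer pcolcea at 1.47, 76.6 and 6.44. The collagen receptor gene ddr1 went the other way, at 146 in cluster 0, 26 in cluster 2 and 17.2 in cluster 7, and the integrin gene itgb1b was at 22.5, 30.2 and 21.5. The membrane collagenase genes were mmp14a, at 5.97, 52.3 and 19.3, and mmp14b, at 10.0, 34.7 and 12.9, the latter being highest in crest-like cluster 1 (67.9).

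Of the other matrix genes, fibronectin was high in both clusters, with fn1a at 6.65, 105 and 142 and fn1b at 3.94, 103 and 113. The collagen-binding gene sparc was at 310, 420 and 896. The small proteoglycan gene dcn (2.03, 32.1 and 102) and matn4 (0.902, 20.1 and 86.6) were higher in cluster 7 than in cluster 2, and the opposite held for the basement membrane linker nid1b (5.18, 93.8 and 37.2). Its copy nid1a was at 0.902, 38.6 and 1.43 and reached 131 in muscle-like cluster 8. Further genes at least 4-fold higher in cluster 2 than in cluster 0 were fbn2b (3.61 and 28.2), hapln1b (1.58 and 20.1) and lama4 (1.01 and 27.6), while hapln1a was at 133 and 167 there and at 10.0 in cluster 7. Of the transcription factors, twist1a, a mesenchymal factor also used to name cluster 2, was at 3.27, 390 and 4.29. The chondrogenic factor genes sox5 and sox6 were at 39.3, 56.8 and 10.0 and at 21.8, 95.1 and 76.6, with sox6 at 245 in cluster 8. The level of sox5 was highest in xanthophore-like cluster 3 (118), followed by clusters 1 (113) and 6 (67.6), where collagen was low.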

How the data were processed

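Droplet 3' RNA libraries, 1 for each GFP sort, were made from zebrafish embryo cells. The submitters' processing notes name Cell Ranger 6.1.2 and genome build GRCz11, and clusters were made by the authors with Seurat. All main values were taken from the matrix deposited for each library, whose entries are unnormalised UMI counts. Counts that the authors had aggregated over both libraries and brought to like depth served as an alternative. From the authors' cell table the cluster number, the GFP label and the barcode were used, and 12 of its columns were not. Cells in the table were kept (4735 of 5276 barcodes) and 541 barcodes were left out. No doublets were removed, and leaving out the 5% of cells with the most UMIs in each library was an alternative.

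UMIs were summed over cells and divided by all UMIs of those cells (CPM). Levels have exact Poisson, ratios exact conditional binomial and shares Clopper-Pearson intervals, all at 95% and for counting error only, since PCR and sampling of embryos are not covered. With 1 library per group no test was run. Where one group had no UMI, 3 counts stood for its sum. To compare shares, cells were thinned to 2000 UMIs and shallower cells left out. Measured genes had at least 20 UMIs in the cells compared, and values by cluster were given for genes with at least 200. Calls used 2-fold between libraries and 4-fold between clusters, and clusters needed 50 cells. Of the pathway lists, the 2 most counted genes of each and genes with at least 200 UMIs and a 4-fold difference between clusters 2 and 0 were named. In the lists 8 symbols (plod1b, colgalt1a, colgalt1b, colgalt2a, colgalt2b, adamts2a, adamts2b and loxb) and of the cell type markers 1 (nkx3.2) had no match in the matrices. Of the 54 collagen genes, 41 had the same symbol in a separate reference of gene names by identifier, and 53 when a final letter was ignored. All 52 symbols were found among the RefSeq genes. Counting that splits reads between near-identical copies could shift values between a and b genes, and whether it did was not tested.

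The collagen genes and all lists were chosen with earlier results of these data known. The cell subsets of clusters 0, 2 and 7, their limits, the sums of cluster 0 without col2a1a, the split of cluster 1 in the comparison of the libraries and the col4a3 and col4a4 pair were chosen after the values had been seen. Python 3.11.15 with numpy 2.4.6, scipy 1.17.1, pandas 2.3.3 and matplotlib 3.10.9 was used, and edgeR 4.0.16 (TMM) and DESeq2 1.42.0 (size factors) in R 4.3.3 gave alternative scalings only. The ratio of the libraries, its interval and the 2-fold calls were tested on simulated Poisson counts. These counts have only the counting error that the intervals assume, so the simulation cannot show how other variation would act. The other steps were not tested on simulated data.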

Additional observations from a re-analysis of the deposited data

Results flagged for a closer look

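The sum of collagen UMIs differed in direction between clusters when the high library was set against the low one. The log2 ratio was -0.38 in cluster 0 and -0.58 in cluster 1, and it was 0.12 in cluster 2 and 0.30 in cluster 7, each with a counting interval on its own side of 0. With 1 library per group the difference between clusters was not tested. The ratio of cluster 7 was -0.18 among its basal list cells. That of cluster 2 was 0.06 (0.00 to 0.11) among its cells with few dlx UMIs and -1.03 in its dlx cells. It was also smaller under several of the alternatives below.

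Between pigmented and other cells of cluster 1, col16a1 had a log2 ratio of 1.45 (low library) and -0.30 (high library). For col4a6 it was 1.18 and -0.32 in the same order, and in the low library its interval included 0 when the limit for pigmented cells was 5 or 20 UMIs. For both genes the difference between the libraries was not tested, and the pigmented cells of the low library numbered 34.

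The barcodes that the authors' cell table leaves out also held collagen UMIs, at 1695 CPM in the low library (310 barcodes, median 945 UMIs) and 1619 in the high library (231 barcodes, median 1160 UMIs). The kept cells were at 1299 and 853. Which cells these barcodes came from was not tested.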

How the results depend on the processing

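Of 460 comparisons with an alternative, 306 concerned sums, medians, counts and ratios, of which 259 stayed within counting error or within 1.5 times, and 154 concerned single genes, of which 121 did. No paired analysis was possible because each group is 1 library, and no library was left out, since 1 is the whole group.

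The log2 ratio of cluster 7 to cluster 2 was 0.78 (low) and 0.95 (high). It was 0.49 and 0.64 as a mean over cells, 0.52 and 0.62 after thinning, and in the low library 0.71 without mitochondrial and ribosomal protein genes and 0.84 without blood cells, an alternative chosen after seeing the data. The ratio of cluster 2 to cluster 0 was 1.72 and 2.22. It was 1.89 and 2.33 without the deepest 5% of cells, 1.91 in the low library as a mean over cells, 1.80 and 2.3 without those genes, and 2.06 and 2.37 after thinning. The ratio of cluster 0 to cluster 6 in the low library was 3.71 and 5.46 after thinning.

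The log2 ratio of high to low over all cells (-0.61) was -0.51 as a mean over cells, -0.49 after thinning, -0.48 with TMM and -0.45 with DESeq2 size factors. These scalings move the median over all genes by 0.13 and 0.16. In cluster 0 (-0.38) it was -0.29 after thinning and -0.22 without the col2a1a cells, in cluster 1 (-0.58) -0.29 among cells with few melanophore UMIs, chosen after seeing the data, in cluster 2 (0.12) 0.042 without the deepest cells, 0.025 as a mean over cells, 0.020 after thinning, 0.055 with TMM and 0.062 with DESeq2 size factors, in cluster 4 (-0.23) 0.38 without the deepest cells and 0.22 after thinning, in cluster 5 (0.06) 0.47 as a mean over cells, and in cluster 6 (0.12) 1.97 after thinning. In cluster 7 (0.30) it was 0.21 without the deepest cells, 0.18 as a mean over cells, 0.12 after thinning and -0.18 among basal list cells, chosen after seeing the data. The median over genes in cluster 6 (-0.14) was -0.56 at a minimum of 10 UMIs.

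The number of genes highest in a cluster went from 0 to 1 in cluster 1 in the low library alone, in cluster 3 at a minimum of 1 UMI and in cluster 4 after thinning and in the high library alone. In cluster 5 it went from 2 to 4 without the deepest cells and to 1 in the low library alone, and in cluster 8 from 2 to 1 at a minimum of 50 UMIs and in the high library alone. The log2 ratio of col1a1a to col1a1b (0.05) was 0.14 after thinning, that of col2a1a to col2a1b (0.74) 1.16 as a mean over cells and 0.93 after thinning, and that of col5a3a to col5a3b (3.09) 3.56 after thinning. For col15a1b the log2 ratio between the high and the low library was -0.46, and 0.16 after thinning. The cause of these shifts was not tested. Of the 22 genes with at least 200 UMIs, 22 had the same highest cluster under 4 of the alternatives and 21 as a mean over cells and after thinning. The fewest cells were in cluster 6 of the low library, with 22.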
